A study of Mus musculus with 14 samples.

Results

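H3K27ac was examined at the genes Pax6, Pax6os1, Elp4 and Pax2 in the embryonic mouse retina. Every peak of the E14 list that overlapped a gene body extended by 100 kb on either side (mm9, GENCODE vM1) was taken. This gave 6 of the 13463 peaks, of which 5 lay on chromosome 2 around Pax6 and 1 lay on chromosome 19 near Pax2. The loci were selected on the lengths, pileups and positions of these peaks, so those values and their ranks are given as descriptions, with no test.

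The 14 samples covered open chromatin, transcripts and H3K27ac in embryonic and postnatal retina, including sorted retinal progenitor cells (RPCs) and retinas with a conditional knockout of Lhx2. The peak list came from 1 of them, H3K27ac ChIP-Seq of retina from CD1 mice at embryonic day 14. The labels describe this sample as RPCs, whereas the methods describe whole dissected retinas for ChIP, so other retinal cell types may be included. Its labels name no deleted gene or treatment of its own. It comprised 2 replicate libraries and 1 isotype control, and the authors pooled the replicates before calling peaks, so no peak has a replicate error. After filtering, 113543038 ChIP tags and 9210563 control tags were left. Within the list, 9 of 9 progenitor marker genes had a peak at a start site, against 1 of 5 lens markers (Prox1), 1 of 6 pigment epithelium markers (Pmel), 1 of 5 blood and vessel markers (Kdr), 0 of 3 optic stalk and astrocyte markers and 0 of 2 liver markers. Over all protein-coding genes the share was 49.8%, being 80.9% with a CpG island at a start site and 7.23% without. An island was present at 9 of 9 progenitor, 3 of 5 lens, 1 of 6 pigment epithelium, 1 of 5 blood and vessel, 2 of 3 optic stalk and astrocyte and 0 of 2 liver markers, so the lists also differed in islands. Prox1 and Kdr are also expressed by cells of the developing retina. Pmel has no island at a start site, and its nearest peak was 752 bp from the start. Which cells gave the peaks at these genes was not tested. No list was of retinal neurons, so the counts cannot tell RPCs from whole retina.

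Acetylation of lysine 27 on histone H3 marks the promoters and enhancers of active genes, and long continuous stretches of the mark are often found at genes that define a cell type. Pax6 encodes a paired-box and homeodomain transcription factor that is required for eye formation and keeps RPCs multipotent. Pax2 encodes a related paired-box factor of the optic stalk and of the astrocyte precursors of the optic nerve, and the Pax6 and Pax2 proteins repress each other's genes where the optic cup meets the stalk. Pax6os1 is a non-coding RNA transcribed from the opposite strand to Pax6. Elp4, which encodes a subunit of the Elongator complex, lies on the opposite strand and overlaps the 3′ end of Pax6 by 5841 bp, and its introns are known to hold distant Pax6 enhancers.

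The sequences at the starts of the members are shown first, because the presence or absence of a peak there is the main contrast between Pax6 and Pax2. They cover the 250 bases before a RefSeq start site. RefSeq gave them on GRCm38.p6, and each was found at 1 place in mm9, whose coordinates are given here. Capitals mark CG dinucleotides, which are dense at many promoters.
Pax6 promoter (chr2:105508803-105509052, plus strand): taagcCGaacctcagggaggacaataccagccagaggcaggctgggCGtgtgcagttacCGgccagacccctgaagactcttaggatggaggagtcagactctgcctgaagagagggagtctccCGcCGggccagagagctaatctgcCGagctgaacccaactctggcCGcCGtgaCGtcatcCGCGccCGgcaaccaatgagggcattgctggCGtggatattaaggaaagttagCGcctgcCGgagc
Pax6os1 promoter (chr2:105510488-105510737, minus strand): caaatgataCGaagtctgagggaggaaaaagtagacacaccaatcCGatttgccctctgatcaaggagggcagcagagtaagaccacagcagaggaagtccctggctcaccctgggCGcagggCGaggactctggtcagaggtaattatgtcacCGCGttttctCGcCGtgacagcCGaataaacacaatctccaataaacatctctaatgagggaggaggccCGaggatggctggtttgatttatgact
Pax2 promoter nearest the annotated start (chr19:44829992-44830241, plus strand): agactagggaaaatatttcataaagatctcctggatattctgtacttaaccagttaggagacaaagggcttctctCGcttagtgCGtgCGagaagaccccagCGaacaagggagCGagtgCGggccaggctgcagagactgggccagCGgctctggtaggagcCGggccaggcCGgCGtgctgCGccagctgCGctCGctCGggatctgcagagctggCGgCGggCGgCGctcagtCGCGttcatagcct
Pax2 promoter farther upstream (chr19:44820841-44821090, plus strand): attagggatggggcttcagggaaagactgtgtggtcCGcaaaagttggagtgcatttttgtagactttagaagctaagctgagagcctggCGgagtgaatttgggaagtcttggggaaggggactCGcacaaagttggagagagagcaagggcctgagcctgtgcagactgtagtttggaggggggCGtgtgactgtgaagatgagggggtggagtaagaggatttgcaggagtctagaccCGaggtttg
Between the Elp4 and Immp1l starts (chr2:105744722-105744794, plus strand): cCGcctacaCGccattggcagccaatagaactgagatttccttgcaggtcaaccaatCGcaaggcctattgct

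The Pax6 promoter shown had a GC content of 60.8%, held 15 CG dinucleotides and lay in a peak. A further Pax6 promoter, at an internal start and not printed because it overlaps an exon, had 47.6% GC and 15 CG dinucleotides and lay in the same peak. The Pax2 promoter nearest the annotated start had 60.8% GC and 20 CG dinucleotides and did not lie in a peak, the nearest being 175 kb away. The upstream Pax2 promoter had 52.8% GC and 5 CG dinucleotides, and its nearest peak was 183 kb away. Another Pax2 promoter, which overlaps an exon and is not printed, had 72.8% GC and 25 CG dinucleotides and was not in a peak either. The Pax6os1 promoter held 10 and lay in the same peak as that of Pax6. The median over 32851 RefSeq promoters of this length was 6. The short stretch between Elp4 and Immp1l is shown because the starts of these divergent genes are 74 bp apart and lie in a single peak.

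Distal sequences are shown for the peaks that lay at no annotated start, and for the part of the Pax6 peak that held most homeodomain cores. Capitals here mark matches to 4 motifs searched on both strands, TAATTA (a homeodomain core of the kind bound by LHX2), ATTGTT (a SOX core), CAGCTG (an E-box) and TTGGCA (a core of the NFI site). TAATTA and CAGCTG read the same on both strands and were counted once per place. Matches to different motifs were counted separately even where they overlapped.
Intergenic peak, central 300 bases (chr2:105357216-105357515, plus strand): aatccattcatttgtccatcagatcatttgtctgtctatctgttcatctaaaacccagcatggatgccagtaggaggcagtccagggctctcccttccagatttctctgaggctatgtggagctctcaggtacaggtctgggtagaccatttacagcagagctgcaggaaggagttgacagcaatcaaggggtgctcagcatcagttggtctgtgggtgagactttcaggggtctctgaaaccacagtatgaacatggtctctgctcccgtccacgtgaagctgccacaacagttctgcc
Peak in the Pax6os1 intron, central 300 bases (chr2:105456221-105456520, plus strand): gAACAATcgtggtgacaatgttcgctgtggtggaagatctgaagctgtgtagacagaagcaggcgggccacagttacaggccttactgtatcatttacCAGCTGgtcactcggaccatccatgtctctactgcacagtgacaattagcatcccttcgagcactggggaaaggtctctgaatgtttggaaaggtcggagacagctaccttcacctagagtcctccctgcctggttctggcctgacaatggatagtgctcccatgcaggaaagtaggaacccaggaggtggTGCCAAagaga
Pax6 domain, window with most TAATTA (chr2:105500553-105500852, plus strand): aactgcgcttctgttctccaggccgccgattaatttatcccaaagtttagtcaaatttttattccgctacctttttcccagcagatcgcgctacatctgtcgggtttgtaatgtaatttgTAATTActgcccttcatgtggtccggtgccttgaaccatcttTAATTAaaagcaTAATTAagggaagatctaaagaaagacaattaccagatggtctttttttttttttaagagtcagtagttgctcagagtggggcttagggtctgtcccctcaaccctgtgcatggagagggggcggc

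Pax6 lay in the longest H3K27ac peak of the E14 list. The peak spanned chr2:105498978-105531842, a domain of 32865 bp, against a median of 1015 bp and a second longest of 22347 bp, at Six3. Its mean pileup was 14.6 and its fold enrichment over the isotype control was 4.44, close to the medians of 15.1 and 4.46 over all peaks. The domain therefore ranked 1st by length but 7216th of 13463 by pileup and 6846th by fold enrichment. Its mean −log10 q was 4.76. Length multiplied by pileup again ranked it 1st, and it held 0.209% of all bases under peaks. Pileup is the mean depth over a peak after the ChIP library was scaled to the control, so it is not raised by length. Broad calling joins nearby enriched stretches, so higher stretches within a long peak do not show in its mean. The 55 peaks longer than 5000 bp had pileups from 8.06 to 24.1, with a median of 15.5, and that of Pax6 was within this range.

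**Figure D1:**
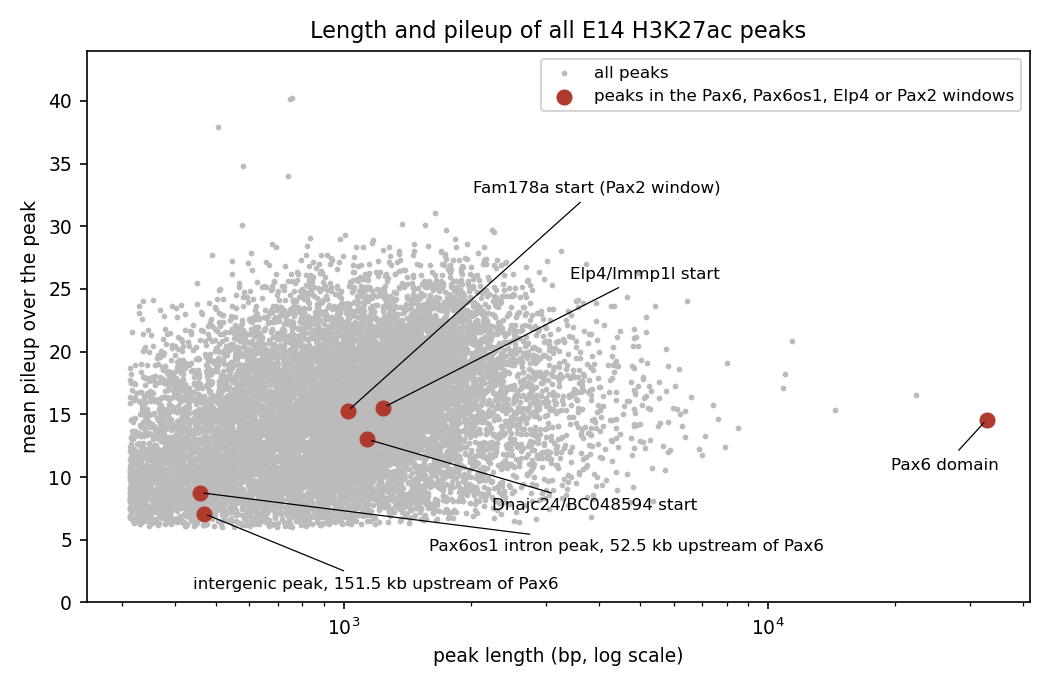
Length (bp, log scale) and mean pileup of the 13463 E14 H3K27ac peaks (grey), with the 6 peaks of the Pax6, Pax6os1, Elp4 and Pax2 windows in red. The Pax6 domain lies alone at the right, at 32865 bp, with a pileup of 14.6 that is near the median of 15.1.

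The domain was not centred on the Pax6 start. It began 10075 bp upstream of the annotated start (chr2, position 105509053, plus strand) and ran 22790 bp downstream, so that 30.7% of it lay upstream. It covered 66.5% of the 34.3-kb Pax6 body. Of 15 exons, obtained by merging all Pax6 transcripts, 9 lay fully inside and 5 lay fully outside. The remaining exon held the downstream border of the domain, 11.5 kb before the end of Pax6 and 5.64 kb before the 3′ end of Elp4. Pax6 has 29 annotated start sites spread over 23.6 kb, including internal starts, and 28 of them lay in the domain. With promoters taken as 1000 bp on either side of any start site, promoters made up 61.4% of the domain, introns 34.9% and other exon sequence 3.72%. This large promoter share follows from the number of annotated start sites.

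Pax6os1 starts 1434 bp downstream of the Pax6 start and is transcribed in the opposite direction. Both of its 2 start sites lay in the Pax6 domain. Of its 134.3-kb body, 11.5 kb (8.57%) and 1 of 5 exons were in the domain. The value of the domain is thus shared by Pax6 and Pax6os1, and acetylation on a histone has no strand, so these data cannot assign it to either gene. Across the list, 49.8% of 22367 protein-coding genes had a peak within 1000 bp of a start site, hereafter a TSS peak, and 25.7% of 3845 non-coding RNA genes had one. Pax6, Pax6os1 and Elp4 had a TSS peak and Pax2 had none.

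Upstream of the domain, the nearest peak was 42.4 kb away in an intron of Pax6os1 (chr2:105456142-105456599, 458 bp), 52.5 kb upstream of the Pax6 start. Its pileup was 8.76 and its fold enrichment 3.26, which ranked 12122nd and 12563rd. The next peak was intergenic (chr2:105357132-105357599, 468 bp), 151.5 kb upstream of Pax6, with a pileup of 7.09 and a fold enrichment of 3.91. Both were among the shorter and lower peaks of the list, at rank 11990 and 11895 by length. When peaks were required to reach a 4-fold enrichment and a q value of 0.001 or lower, limits that 64.1% of all peaks passed, neither was kept. The other 4 peaks of these loci were kept.

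Both distal peaks were poor in CG dinucleotides, with an observed to expected CpG ratio of 0.121 for the intergenic peak and 0.232 for the intronic peak, against a median of 0.716 over all peaks. The intergenic peak held no match to any of the 4 motifs. The intronic peak held 1 ATTGTT, 1 CAGCTG and 2 TTGGCA, and its printed centre shows all of them but 1 TTGGCA.

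Downstream of the domain no peak was listed for 212 kb, up to the start of Elp4. This interval was longer than most, at the 81st percentile of 13442 intervals between neighbouring peaks, whose median was 59.2 kb. It contained the 3′ part of Pax6 and nearly all of the 207-kb Elp4 body. An interval that holds a long gene is long itself, so the percentile is descriptive only. A stretch with no peak holds no region that passed the caller's thresholds, and weaker acetylation in the Elp4 introns was not measurable from the list.

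**Figure D2:**
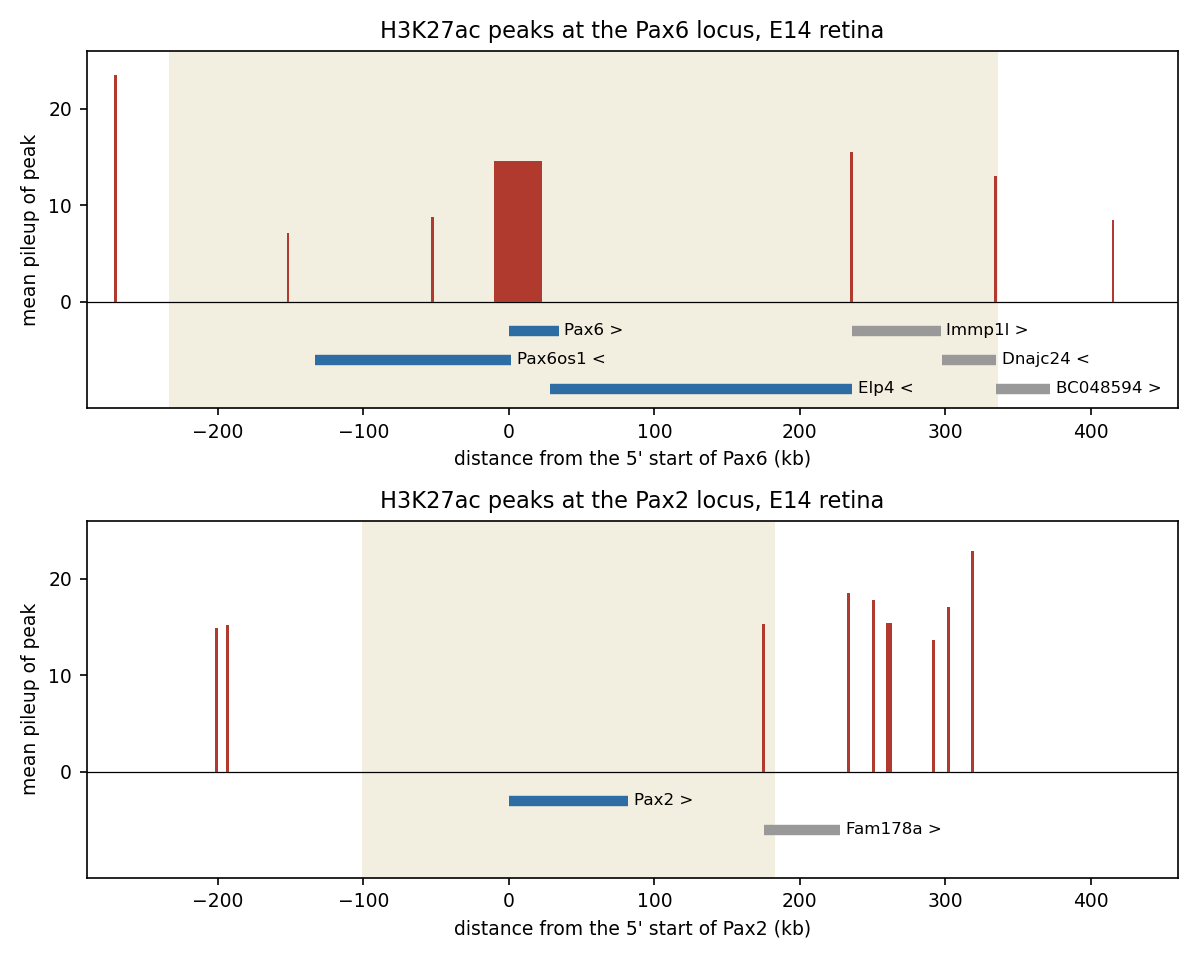
Mean pileup of each H3K27ac peak (red bars) against distance (kb) from the start of Pax6 (top) and of Pax2 (bottom). Bars are as wide as the peak, or 2 kb where it is shorter. The shaded area is the union of the member windows, and blue and grey lines are member genes and the neighbouring genes in the windows with a TSS peak (> plus strand, < minus strand). The domain over Pax6 is the widest bar, and the Pax2 body lies in an interval without peaks.

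Elp4 carried a short peak at its start and nothing further along its body. Of its 4 annotated start sites, 2 lay in the peak. The peak (chr2:105744073-105745310, 1238 bp) had a pileup of 15.5, which ranked 6236th, but a fold enrichment of 7.52, which ranked 362nd of 13463. It reached 649 bp into the 207-kb Elp4 body, or 0.313% of it. For comparison, 882 protein-coding genes of 150 to 300 kb had a median of 1 peak in the body, and 49.5% had exactly 1. The same peak covered the start of Immp1l, which encodes a subunit of a peptidase of the mitochondrial inner membrane. The last peak of the window (chr2:105842783-105843921, 1139 bp, pileup 13.0, fold enrichment 5.18) lay at the divergent starts of Dnajc24, which acts in diphthamide synthesis, and of the non-coding gene BC048594. At 98.1 kb from Elp4 it was just inside the limit, and the next peak, at 179 kb (945 bp, pileup 8.47), was outside it.

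Pax2 lay in an interval without peaks. None of its 5 start sites had a peak within 1000 bp, and no peak overlapped its 82.2-kb body (chr19:44830539-44912758, plus strand). The interval was 367 kb long, from 193 kb upstream of the Pax2 start to 92.3 kb beyond its end. It was at the 88.5th percentile of all intervals. A long interval is more likely to contain a given gene, so this percentile is descriptive only. Among the 3066 protein-coding genes of at least 80 kb, 856 (27.9%) also had no peak in the body. The only peak of the Pax2 window was at the start of Fam178a, a neighbouring gene (chr19:45005107-45006128, 1022 bp). Its pileup was 15.3, its fold enrichment 5.98, and its ranks were 6670th by length and 6516th by pileup. This peak was 92.3 kb from the end of Pax2, close to the limit of 100 kb, and the next, at the start of Sema4g, was 150.8 kb away (704 bp, pileup 18.5). The antisense genes Gm20395 and 1700039E22Rik, which start inside Pax2, had no TSS peak either. In a bulk sample, fewer Pax2-expressing cells and less acetylation per cell cannot be told apart. Beside this result, 0 of 3 optic stalk and astrocyte markers had a TSS peak and 4 of 8 genes of the optic stalk and ventral retina had one, against 49.8% of all protein-coding genes and 80.9% of those with a start-site island, which all 8 have. The list of 8 includes Pax2 itself, and Vax1 is in both lists. Their part in it was not tested.

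The windows differed most in the bases covered. Peaks covered 33323 bp of the Pax6 window (14.2%), 33791 bp of the Pax6os1 window (10.1%), 35700 bp of the Elp4 window (8.77%) and 1022 bp of the Pax2 window (0.362%). The median over all protein-coding genes was 2542 bp, or 1.05%. The first 3 windows share the domain and the intronic peak and are not independent. By share covered, the Pax6 window ranked 1st of 22367 and the Pax2 window was at the 28.4th percentile. The number of peaks gave a different order, with 2 for Pax6, 3 for Pax6os1, 4 for Elp4 and 1 for Pax2 against a median of 2. All of the 4 windows held a peak, as did 79.7% of protein-coding windows. Within them, 14 other genes start, of which 4 had a TSS peak, namely Immp1l, Dnajc24, BC048594 and Fam178a. Immp1l, Dnajc24 and Fam178a are the only protein-coding genes among the 14, and the rest are non-coding genes and pseudogenes. The shares over all genes were 49.8% for protein-coding and 25.7% for non-coding genes.

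The sequence of the domain was not used to choose it. Its GC content was 50.3%, lower than the median of 60.2% over all peaks and at the 9.74th percentile. Long peaks were less GC-rich in general, and among the 55 peaks over 5000 bp, whose median was 54.9%, the domain was at the 20th percentile. Over 32 full bins of 1 kb, GC content ranged from 40.8%, at −4.08 to −3.08 kb from the Pax6 start, to 61.7%, at 6.93 to 7.92 kb, negative distances being upstream. The number of CG dinucleotides per bin ranged from 9 to 82, with a median of 30. The domain therefore contained CG-dense and CG-poor segments in alternation.

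CpG islands were searched for with windows of 200 bases, each with a GC content over 50% and an observed to expected CpG ratio over 0.6. Windows that passed were merged, and merged stretches of at least 500 bp were taken as islands. Pax6 with 2000 bp on either side held 8 islands, all of which lay in the domain. They summed to 6281 bp, and the longest (1482 bp) ran from −0.255 to 1.23 kb around the start. Pax2 held 5 islands of a similar total, 6371 bp, and none lay in a peak. Its longest (2290 bp) ran from −0.621 to 1.67 kb around the start. Elp4 held 1 island (840 bp), in the peak at its start. Pax6os1 held 4 islands (3404 bp), of which 2 (2222 bp) lay in a peak. Of 12932 protein-coding genes with an island at a start site, 80.9% had a TSS peak, against 7.23% of the 9435 genes without one. Pax2 thus belonged to the minority of island genes with no TSS peak.

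TAATTA occurred 12 times in the domain, or 0.365 per kb, against 0.110 per kb over all peaks pooled. Among peaks over 5000 bp the domain was at the 76.4th percentile for this density. The domain had a lower GC content than most peaks, and the part of base composition in the density was not tested. The matches were uneven. Of the 12, 5 lay in the 10075 bp upstream of the Pax6 start (0.496 per kb) and 7 in the 22790 bp downstream (0.307 per kb). A cluster of 3 lay between −8.38 and −8.33 kb from the start, within the window printed above. The others were at −7.07 and −5.996 kb upstream and at 0.799, 1.54, 8.14, 9.08, 15.2, 21.8 and 22.1 kb downstream. ATTGTT occurred 17 times (0.517 per kb against 0.279 pooled), TTGGCA 11 times (0.335 against 0.380) and CAGCTG 8 times (0.243 against 0.601). CAGCTG was thus less dense than in the pooled peaks. Among peaks over 5000 bp, the median density per kb was 0.403 for ATTGTT, 0.386 for TTGGCA and 0.456 for CAGCTG. The domain was at the 60th percentile of these long peaks for ATTGTT. The counts are single values for 1 region and were not tested.

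**Figure D3:**
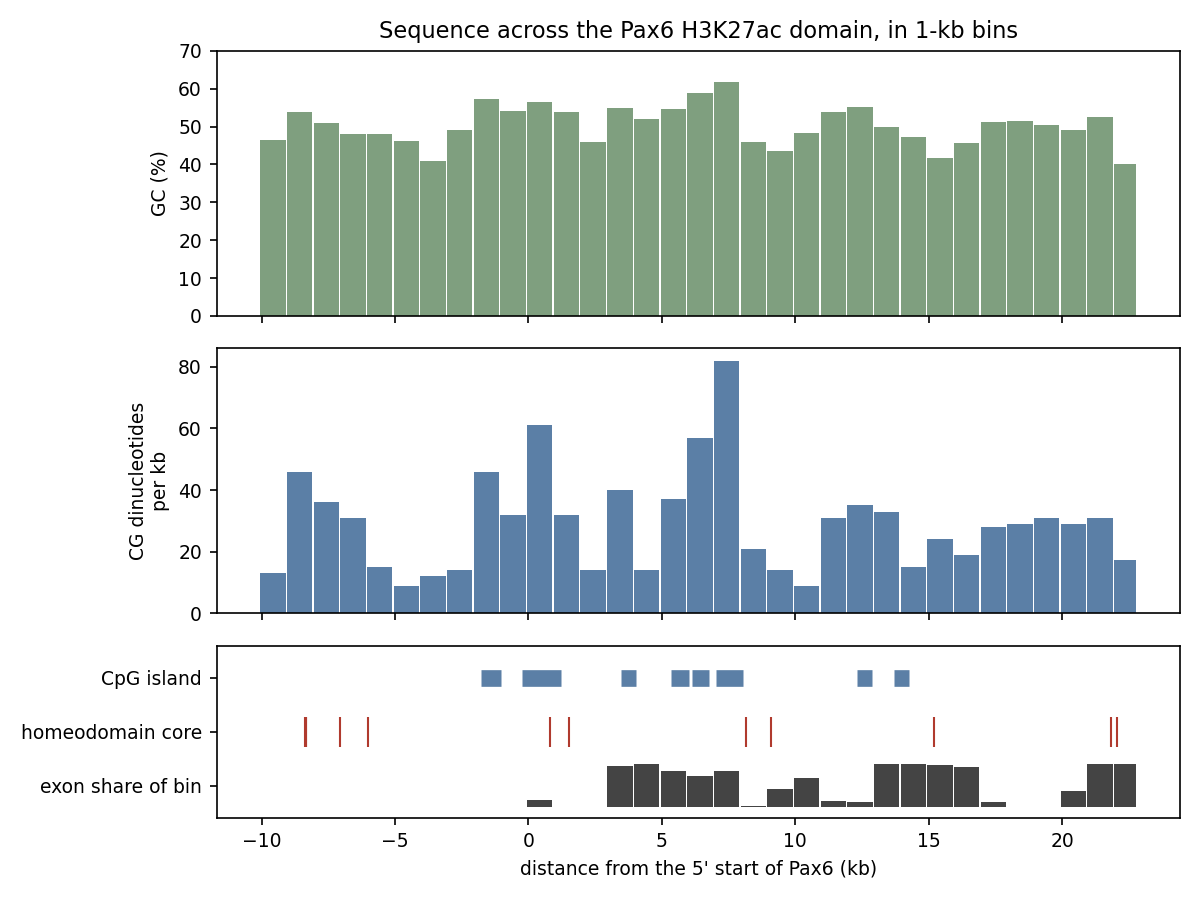
GC content (%) and CG dinucleotides per kb in bins of 1 kb across the Pax6 domain, against distance (kb) from the Pax6 start. Below are the CpG islands (blue), the TAATTA matches (red, homeodomain core) and the share of each bin in Pax6 exons (black, a full-height bar being a wholly exonic bin). GC content ranged from 40.8 to 61.7% over the full bins and the 8 islands lay between −1.77 and 14.3 kb.

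In the promoters, the same letters were rare. Over all RefSeq promoters of 250 bases, 4.84% held TAATTA, 9.42% held ATTGTT, 13% held CAGCTG and 12.3% held TTGGCA. The Pax6 promoter printed above held none of them. The Pax6os1 promoter held 1 TAATTA, the Pax2 promoter nearest the annotated start held 1 CAGCTG and the Elp4 promoter held 1 TTGGCA.

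Compared with the next longest peaks, which lay at Six3, an eye field homeobox gene, and at Meis1, a TALE homeobox gene of the optic cup, the Pax6 domain had a similar height. Pileup was 14.6 for Pax6, 16.6 for Six3 and 15.4 for Meis1. GC content was 50.3%, 52.6% and 48.1%, respectively. The Pax6 domain held 12 TAATTA, against 3 in the 22347 bp at Six3 and 2 in the 14441 bp at Meis1 (0.365, 0.134 and 0.139 per kb). ATTGTT occurred at 0.517, 0.403 and 0.692 per kb. The Pax6 domain was lowest for CAGCTG (0.243, 0.358 and 0.762 per kb) and for TTGGCA (0.335, 0.358 and 0.485 per kb). The differences rest on few matches per peak and were not tested.

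Pax6 was the only member of the Pax family with a TSS peak, 1 of 9 against the 49.8% of all protein-coding genes. The other Pax genes are known mainly from other tissues, such as Pax1 and Pax9 in the sclerotome, Pax3 and Pax7 in the dorsal neural tube and muscle, Pax4 in the pancreas, Pax5 in B cells and Pax8 in the thyroid and kidney. Whether expression in other tissues accounts for the missing peaks was not tested. A CpG island lay at a start site of 7 of the 9 genes, all but Pax4 and Pax8. Of all protein-coding genes with such an island, 80.9% had a TSS peak. The nearest peak was 174.6 kb from the Pax2 start, 348 kb from Pax1, 346 kb from Pax9, 291 kb from Pax3, 143.5 kb from Pax7, 45.9 kb from Pax8, 45.1 kb from Pax5 and 25.1 kb from Pax4. The distance at Pax2 was therefore inside the range of the other 7 members without a peak.

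Eye field and early retinal genes, the group in which Pax6 acts, had a TSS peak in 11 of 12 cases, against 80.9% of all genes with a start-site island, which all 12 have, the exception being Vsx1, a homeobox gene of bipolar cells. Their longest TSS peaks ranged from 2004 bp at Meis2 to 22347 bp at Six3, with a median of 4251 bp, against 1137 bp over all genes with a TSS peak. Rax, which is needed to form the optic vesicle, had 6096 bp, and Sox2, an RPC factor, had 5974 bp. Lhx2, a homeobox gene of RPCs, had 2560 bp, and Nr2e1, Hes1, Tbx3, Otx2 and Six6 lay between 2395 and 5074 bp. Pileups in this group ran from 9.29 at Meis2 to 20.2 at Six6, and that of Pax6, at 14.6, lay within this range.

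Genes of the optic stalk and ventral retina, the group in which Pax2 acts, had a TSS peak in 4 of 8 cases, against 49.8% of all protein-coding genes. Vax2, a homeobox gene of the ventral retina, had 5900 bp, and the nuclear receptor genes Nr2f2 and Nr2f1 had 3049 and 2610 bp. Aldh1a3, which encodes a retinoic acid synthesizing enzyme of the ventral retina, had 604 bp. Pax2, Vax1 (a homeobox gene of the optic stalk), Bmp7 and Shh (genes of secreted signals) had none. All of these 8 genes have a CpG island at a start site, and 80.9% of all such genes had a TSS peak.

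All 6 genes of the Elongator complex, Elp4 among them, had a TSS peak, as did 49.8% of all protein-coding genes. Lengths were 1518 bp at Ikbkap, 1499 bp at Elp2, 566 bp at Elp3, 1238 bp at Elp4, 2337 bp at Elp5 and 1094 bp at Elp6. The fold enrichment of 7.52 at Elp4 was exceeded only by that of Elp5, at 8.11, and the other 4 ran from 4.61 to 5.89. Of the 6, 5 had an island at a start site, a class in which 80.9% of genes had a TSS peak.

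**Figure D4:**
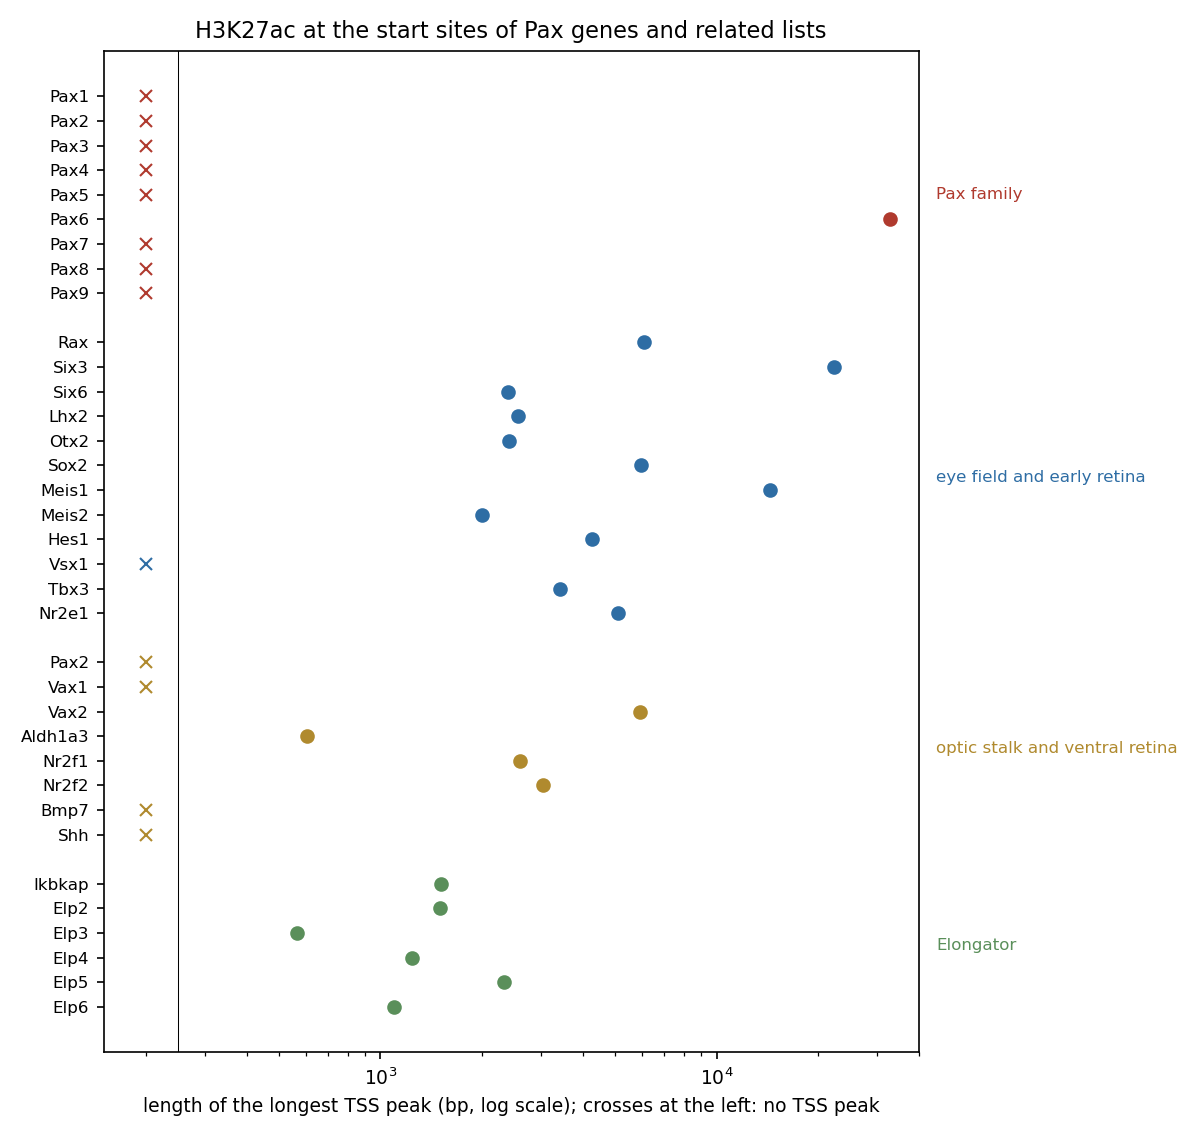
Length (bp, log scale) of the longest TSS peak of each gene in 4 lists, with crosses for genes without a TSS peak. Pax6 is the only Pax gene with a peak, and its 32865 bp exceed the 22347 bp of Six3, the longest in the other lists.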

How the data were processed

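Of the 14 samples, only the H3K27ac ChIP-Seq of E14 retina was used here. Reads were aligned to mm9 with Bowtie2, the 2 replicates were pooled, and broad regions were called with MACS2 2.1.0.20140616 against the isotype control (q cutoff 0.05, broad cutoff 0.1). These settings are those of the file header, and the methods state another fragment length and q cutoff. Per the file header, 159237447 ChIP and 27735759 control tags were reduced to 113543038 and 9210563 after duplicates were filtered. The pileup signal of each peak, as deposited by the authors, is a mean over the region after the larger library was scaled to the smaller. The fold enrichment ratio over the local background, the −log10 p and the −log10 q, also deposited by the authors, are means over the region. Broad calling joins nearby enriched stretches, so peak length depends on the broad cutoff, and the shallow control limits the precision of the fold enrichment.

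Peaks were joined to GENCODE vM1 genes by an overlap of at least 1 bp. Percentiles give the percent of features at or below a value. Sequences were read from mm9, and RefSeq promoters (GRCm38.p6 table, 7 for the members) were found there by exact match. Promoters and parts that overlap an annotated exon are not printed. A planned share of repeats was not computed because the genome used here is not masked. Names missing from the annotation were matched through RefSeq synonyms (Elp5 and Elp6), and Dcdc1 was not matched. A planned member of the eye field and progenitor marker lists is not reported here. The genes named were the members with every peak in their windows, genes in the windows with a TSS peak, and the lists, of which genes without a TSS peak were given by name; Sema4g, Gm20395 and 1700039E22Rik were named after their values were seen. The members and lists were chosen with earlier results of these data known. With 1 pooled list no test was possible. Alternatives were extensions of 50 and 200 kb, stricter limits (4-fold enrichment or more, q of 0.001 or lower), joining of peaks within 3000 or 12500 bp, midpoints in place of overlap, other promoter definitions and other measures for the ranks. The overlap, gap, island and motif steps were tested on simulated data. Python 3.11.15, numpy 2.4.6, pandas 2.3.3 and matplotlib 3.10.9 were used.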

Additional observations from a re-analysis of the deposited data

How the results depend on the processing

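Of 61 alternative values, 48 stayed within 1.5 times the reported value and 13 moved. TSS peaks were called at Pax6, Pax6os1 and Elp4 and not at Pax2 under each definition tried, and the share of protein-coding genes with one ranged from 37.9 to 51.4%. The Pax6 domain ranked 1st by length after neighbouring peaks were joined at either distance and under the stricter limits. With an extension of 50 kb the Pax6 window held 1 peak, the Elp4 window 2 and the Pax2 window 0, covering 0 bp. With 200 kb the Pax2 window held 5 peaks covering 7321 bp. The stricter limits left 1 peak in the Pax6 window and 1 in the Pax6os1 window. Ranked by pileup times length in place of pileup, the top peak of the Pax6, Pax6os1 and Elp4 windows ranked 1. Ranked by fold enrichment, that of the Elp4 window ranked 362 and that of the Pax2 window 1909. The counts in wider and narrower windows differ because other stretches were searched, and the peaks lost under the stricter limits failed them in both fold enrichment and q. No paired analysis was possible because the replicates were pooled into 1 peak list, and for the same reason neither replicate could be left out.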

Other observations

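The genes around Pax6 were followed beyond the windows. Of 7 neighbours found in the annotation, 5 had a TSS peak, against 49.8% of all protein-coding genes. An island lay at a start site of 6 of the 7, and 80.9% of all such genes had a TSS peak. The peak at Rcn1, which encodes a calcium-binding protein of the endoplasmic reticulum, was 1004 bp long. This peak lay upstream of Pax6, at −269 kb from its start. Pileup was 23.5 at Rcn1 and 14.6 over the Pax6 domain, both being means over regions of unlike length. At Mpped2, which encodes a metallophosphoesterase, the peak was 2230 bp long with a pileup of 21.5. Elp4 and Immp1l shared a peak, and Dnajc24 had one. Wt1, a zinc finger transcription factor gene of the kidney and gonad, had no TSS peak and no peak within 109.1 kb of its start, although it has a CpG island there. Dcdc5, a doublecortin domain gene, had none either, and its nearest peak was 25.95 kb away.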
